A study of Homo sapiens with 18 samples.

Results

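The comparison described here is that of Holoclone with Paraclone cells of the line Panc89, which takes 6 of the 18 RNA-seq libraries of the study, 3 for each clone, and covers all 16093 genes that could be tested among 40266 gene symbols. Panc89 is a human pancreatic ductal adenocarcinoma (PDAC) line that came from a lymph node metastasis and served as the epithelial model. Holoclone cells, taken as cancer stem cell (CSC)-like, and Paraclone cells, taken as non-CSC, were grown from single cells of parental Panc89 and chosen by stable colony morphology. The other 12 libraries are 3 of parental Panc89 and 9 of the mesenchymal-like line Panc1, and no group carried a treatment or a transgene. Each variant is therefore a single clone, and its 3 replicates are RNA of 3 passages, so the p-values below cover the spread between passages of a clone and not the spread between clones. A difference between the clones cannot be told apart from the difference that any pair of single cells of this line might show.

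A colony grown from a single epithelial cell takes a shape that reflects how long its cells keep dividing. Holoclones are compact colonies of small cells that can be passaged for long and are rich in self-renewing cells, whereas Paraclones are loose colonies of flatter cells with little capacity to renew. Carcinoma lines keep this range of colony types, which makes cloning a way to separate variants of a line without a surface marker. The question here was which groups of genes, beyond the stem cell and epithelial–mesenchymal transition (EMT) markers, separate the clones of the epithelial line.

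Levels are log2(TPM + 1) as deposited, where TPM is a transcript abundance scaled for length and library size, and differences are Holoclone minus Paraclone on that scale. Because TPM keep no read totals, depth is unknown and counting intervals cannot be given. The 6 libraries held 13360 to 14199 genes at 1 TPM or more. All 12 epithelial and PDAC markers, among them *EPCAM*, *CDH1* and *KRT19*, reached 1 TPM, with a summed level of 5730 to 6930 TPM in Holoclone and 6800 to 10100 TPM in Paraclone cells. By the test below, 7 of them were called lower in Holoclone cells and 1 higher, against 13.3% and 22.4% of all genes tested. Of the markers of other cells, 2 of 10 for fibroblasts (*COL1A1* and *ACTA2*, summed 26.5 to 49.2 against 34.2 to 36.5 TPM), 3 of 7 for endothelium (1.44 to 2.48 against 5.62 to 11 TPM), 2 of 10 for immune cells (*CD68* and *CD14*, 19.3 to 26.9 against 36.6 to 67.2 TPM) and 0 of 10 for acinar or endocrine cells reached 1 TPM. *PTPRC*, the pan-leukocyte marker, did not. Holoclone replicate 1 and Paraclone replicate 2 lay farthest from their group means, with root mean square deviations of 0.386 and 0.422 against 0.199 to 0.336 in the other 4 libraries. Values without them are given beside several of the lists that they moved, and leaving out both turned the sign of the median in 8 of the 56 gene lists, whose medians lay between −0.13 and 0.087.

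A gene was called higher or lower when its Benjamini-Hochberg adjusted p in limma-trend was under 0.05. The spread was estimated over all 18 libraries, and the largest root mean square deviations from a group mean were among the 6 clone libraries. In total 5746 genes were called (35.7% of those tested), 3606 higher in Holoclone cells (22.4%) and 2140 lower (13.3%). Of these, 2124 also had an absolute log2 fold change over 1 (13.2%), 1264 of them higher and 860 lower. The changes reached far at both ends, with 93 called genes higher by more than 3 and 74 lower by more than 3 on the log2 scale. The middle of the distribution lay slightly above 0, at a median log2 fold change of 0.0923, and 90% of the genes lay between the 5th percentile of −1.09 and the 95th of 1.31. This offset depends on the scaling of the libraries: with upper quartile scaling the median was 0.0128 and 3067 genes were higher against 2779 lower (52.5% of calls higher), and with median-of-ratios scaling it was 0.0025 with 3006 against 2892 (51%), where the deposited TPM gave 62.8%. The medians of 8 lists, which lay between 0.005 and 0.105, turned negative with at least 1 of these scalings: desmosomes, protocadherins, collagens, matricellular proteins, WNT, oxidative phosphorylation, checkpoint ligands, and DNA methylation and Polycomb enzymes. Medians of gene lists are therefore set beside 0.0923 and shares of members beside 22.4% and 13.3%. In bulk RNA, fewer cells with a transcript and less of it per cell cannot be told apart.

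**Figure D1:**
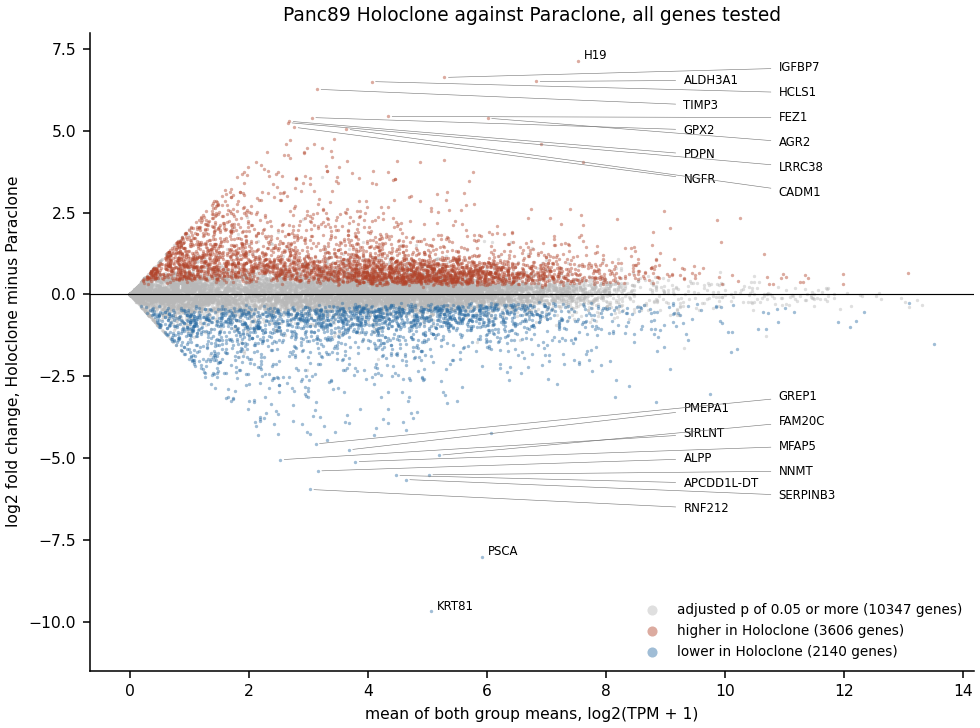
Log2 fold change (Holoclone minus Paraclone, y axis) of each of the 16093 genes tested against the mean of both group means in log2(TPM + 1) (x axis), with 3606 genes called higher in red, 2140 called lower in blue and the rest in grey. The 12 highest and 12 lowest named genes carry their symbols, from *H19* at 7.13 down to *KRT81* at −9.69, and the cloud is wider among genes of low and middle level than among the most abundant genes.

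Many genes of largest change were close to 0 in 1 of the clones. By the naming rule (adjusted p under 0.05, at least 10 TPM in the higher group, no overlap of libraries), the 12 highest included the metalloproteinase inhibitor *TIMP3*, the selenium-dependent glutathione peroxidase *GPX2*, the membrane glycoprotein *PDPN*, the neurotrophin receptor *NGFR* and the adhesion molecule *CADM1*. *TIMP3* was at 6.26, 6.46 and 6.12 in Holoclone and 0.013, 0.0080 and 0.021 in Paraclone cells log2(TPM + 1), and its difference was 6.26 ± 0.14 SE, adjusted p = 6.52e-14 in limma-trend (SE, standard error). The gene lies at chr22:32801705-32863041 on GRCh38. Parental cells were in between, at 2.34. *NGFR* was at 6.15, 5.46 and 4.33 in Holoclone and 0.13, 0.27 and 0.23 in Paraclone cells (5.11 ± 0.31 SE, adjusted p = 8.63e-09). For both genes all Holoclone libraries lay above all Paraclone libraries by a wide margin, and the Paraclone values of *TIMP3* were close to 0. Absence of overlap was a condition of naming by this rule, here and in the lists below, and is no added result. Among the 12 lowest were the protease inhibitor *SERPINB3*, the nicotinamide methyltransferase *NNMT*, the placental alkaline phosphatase *ALPP*, the microfibril protein *MFAP5*, the secretory pathway kinase *FAM20C* and *PMEPA1*, a feedback inhibitor of TGF-beta signalling. *NNMT* was at 2.03, 2.42 and 2.36 in Holoclone and 7.49, 7.98 and 7.88 in Paraclone cells (−5.51 ± 0.31 SE, adjusted p = 3.12e-09). *ALPP* was at 0.98, 0.25 and 0.15 in Holoclone and 5.36, 6.79 and 5.42 in Paraclone cells (−5.40 ± 0.32 SE, adjusted p = 6.13e-09), and the non-coding *SIRLNT* was listed at 0 in all Holoclone libraries against 5.12, 5.05 and 4.99 in Paraclone cells. *SERPINB3*, *ALPP* and *KRT81* have close paralogs between which transcript quantification could divide reads, so their exact levels are uncertain.

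Counted over all genes, 25 had a mean under 0.5 TPM in Paraclone cells and at least 10 TPM in Holoclone cells, and 21 showed the opposite pattern. The first set held *CCND2* (cyclin D2), *NTRK2* (a neurotrophin receptor, like *NGFR*), *ASCL2* (a basic helix-loop-helix factor of intestinal stem cells), *ACSS1* (mitochondrial acetyl-CoA synthetase), *FOLH1* and *GJB6*. The second held *KRT81*, *RNF212*, *IL6*, *CXCR4*, *SPINK4*, *SPINK6*, *NFE2* and *CHRNA9*. *CXCR4*, the receptor of the chemokine CXCL12, was listed at 0 in every Holoclone library and was at 4.93, 3.31 and 4.66 in Paraclone libraries. *CCND2* was at 4.73, 4.99 and 5.39 in Holoclone and 0.47, 0.25 and 0.30 in Paraclone cells (4.70 ± 0.22 SE, adjusted p = 4.08e-10). In parental cells the mean lay between the clone means for 24 of the 25 and 20 of the 21 genes. The same held for 1664 of the 2123 called genes with an absolute log2 fold change over 1 (78.4%, XIST and Y-linked genes left out). The parental mean of these 2123 genes lay at a median of 0.46 of the way from the Paraclone to the Holoclone mean. All of these genes were chosen for a gap between the clones, so a parental mean inside the gap follows in part from that choice.

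The list with the highest median and the largest share of higher members was that of amino acid supply. ATF4 is the transcription factor of the integrated stress response. When translation initiation is slowed, it raises genes for amino acid import, serine and asparagine synthesis, and the loading of transfer RNAs. Serine feeds glycine, one-carbon units and glutathione, which dividing tumour cells use in large amounts. Of 36 genes of serine synthesis and the ATF4 response tested, 25 were called higher in Holoclone cells (69.4%) and 0 lower, and the list's median was 0.96, with single values from 0.20 to 2.50. The amino acid carriers were among the largest changes. *SLC7A5*, the light chain of the LAT1 exchanger of large neutral amino acids, was at 11.30, 11.46 and 11.48 in Holoclone and 9.09, 9.05 and 9.14 in Paraclone cells (2.32 ± 0.17 SE, adjusted p = 5.92e-08). Its heavy chain *SLC3A2* was at 10.54, 11.15 and 11.32 in Holoclone and 8.73, 8.64 and 8.85 in Paraclone cells (2.27 ± 0.25 SE, adjusted p = 4.58e-06). The libraries of both subunits fell into separate ranges, and together with the alanine, serine and cysteine carrier *SLC1A4* (2.50) and the cationic carrier *SLC7A1* (1.11) the import genes moved in the same direction.

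The synthesis enzymes followed the carriers. *PSAT1*, the aminotransferase of the serine pathway, was at 9.46, 9.75 and 10.01 in Holoclone and 8.35, 7.11 and 8.08 in Paraclone cells (1.89 ± 0.28 SE, adjusted p = 8.12e-05). Its neighbours in the pathway, *PHGDH* (1.32 ± 0.41 SE, adjusted p = 0.019) and *PSPH* (1.26 ± 0.22 SE, adjusted p = 0.000387), were also higher, and so were *ASNS*, asparagine synthetase (1.82), *GPT2*, mitochondrial alanine aminotransferase (2.07), *CBS* (1.18) and the folate enzymes *SHMT2* (0.80), *MTHFD2* (0.90) and *MTHFD1L* (0.54). Aminoacyl-tRNA synthetases were called higher for alanine (*AARS1*, 1.41), serine (*SARS1*, 1.07), glycine (*GARS1*, 0.89), tyrosine (*YARS1*, 0.64) and asparagine (*NARS1*, 0.62). *ATF4* itself was at 10.12 ± 0.16 in Holoclone and 9.81 ± 0.13 in Paraclone cells and did not pass (0.30 ± 0.19 SE, adjusted p = 0.228). Nor did the stress factors *DDIT3* (0.33), *ATF3* (1.60) and *TRIB3* (0.81), whose replicates varied widely. The separation was narrower in Holoclone replicate 1 and wider in Paraclone replicate 2: the list's median deviation from its mean over the 6 libraries was 0.12, 0.68 and 0.83 in Holoclone and −0.24, −0.96 and −0.40 in Paraclone libraries, all Holoclone libraries above all Paraclone libraries. Without Paraclone replicate 2, 21 of 36 were higher with a median of 0.74, without both libraries 25, and in a fit of the 6 libraries alone 12.

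The letters of the composite C/EBP and ATF response element, TGATGNAA on either strand, were searched in the RefSeq promoter windows of tested genes (250 bases before to 50 after each annotated start, GRCh38.p14, 17047 windows of 11821 genes). They stood in 14 of 54 windows of the list (25.9%, from 31 of its 36 members) and in 357 of all windows (2.09%). Of the 12 members with such a window, 11 were called higher and 0 lower. Both members of largest change with a match are shown, with the matching letters in capitals.
SLC1A4, chr2:64989149-64989448, plus strand: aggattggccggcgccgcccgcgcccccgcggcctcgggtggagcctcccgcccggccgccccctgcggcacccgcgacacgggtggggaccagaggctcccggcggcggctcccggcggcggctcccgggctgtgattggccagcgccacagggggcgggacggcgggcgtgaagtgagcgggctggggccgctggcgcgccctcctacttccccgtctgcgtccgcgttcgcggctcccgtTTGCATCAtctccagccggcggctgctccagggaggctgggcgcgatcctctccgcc
SLC3A2, chr11:62881449-62881748, plus strand: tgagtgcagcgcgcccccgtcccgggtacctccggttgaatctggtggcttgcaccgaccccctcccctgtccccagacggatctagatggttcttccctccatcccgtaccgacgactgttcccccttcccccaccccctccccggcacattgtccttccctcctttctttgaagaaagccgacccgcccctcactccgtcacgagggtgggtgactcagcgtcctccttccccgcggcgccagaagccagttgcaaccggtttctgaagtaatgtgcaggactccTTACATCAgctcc
A match is a description of these letters only and no record of binding. The element was chosen for this list after the values had been seen, and its members were listed as ATF4 responders in the first place.

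Genes of the unfolded protein response moved in the same direction. This response raises chaperones and degradation factors of the endoplasmic reticulum when misfolded proteins build up, through the sensors ATF6, ERN1 (IRE1) and EIF2AK3 (PERK). Of 25 genes tested, 15 were higher (60%), 1 was lower and 9 did not pass, with a median of 0.63. *HSPA5*, the chaperone BiP, was at 9.94, 10.77 and 11.47 in Holoclone and 9.02, 9.35 and 9.03 in Paraclone cells (1.59 ± 0.40 SE, adjusted p = 0.00571). The Holoclone libraries lay above the Paraclone libraries but spread over more than 1 unit. *HYOU1*, a chaperone of the same compartment, was at 8.05, 8.32 and 8.90 in Holoclone and 6.46, 6.99 and 6.59 in Paraclone cells (1.74 ± 0.19 SE, adjusted p = 3.43e-06). *XBP1*, the transcription factor activated by ERN1, was higher by 1.16 ± 0.18 SE, adjusted p = 0.000107, as were the degradation factors *HERPUD1* (1.54), *EDEM1* (1.10) and *SEL1L* (0.88). Among the sensors *EIF2AK3* was called higher (0.98 ± 0.14 SE, adjusted p = 7.04e-05), whereas *ATF6* (0.29 ± 0.25 SE, adjusted p = 0.392) and *ERN1* (0.86 ± 0.45 SE, adjusted p = 0.151) were not. Not every chaperone followed: *CALR* was at 9.28 ± 0.59 in Holoclone and 9.07 ± 0.94 in Paraclone cells and *CRELD2* had a log2 fold change of −0.023, neither past the threshold, and *EDEM2* was lower (−0.30).

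The endoplasmic reticulum stress element, a CCAAT box and CCACG separated by 9 bases (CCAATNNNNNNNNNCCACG, either strand), stood in 9 of 31 promoter windows of the list (29%) and in 18 of all 17047 (0.106%), and no match of it shared a base with a match of TGATGNAA. Of the 7 members with a match, 4 were higher (*HSPA5*, *XBP1*, *HSP90B1* and *CANX*) and 3 did not pass (*CALR*, *CRELD2* and *PDIA6*). The windows of *HSPA5* and *XBP1* are shown, with the element in capitals.
HSPA5, chr9:125241294-125241593, minus strand: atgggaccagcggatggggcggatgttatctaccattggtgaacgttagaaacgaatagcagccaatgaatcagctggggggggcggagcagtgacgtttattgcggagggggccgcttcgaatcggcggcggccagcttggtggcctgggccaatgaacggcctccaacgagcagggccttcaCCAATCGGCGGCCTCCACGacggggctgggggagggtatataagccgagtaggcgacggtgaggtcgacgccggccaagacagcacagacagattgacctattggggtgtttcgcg
XBP1, chr22:28800520-28800819, minus strand: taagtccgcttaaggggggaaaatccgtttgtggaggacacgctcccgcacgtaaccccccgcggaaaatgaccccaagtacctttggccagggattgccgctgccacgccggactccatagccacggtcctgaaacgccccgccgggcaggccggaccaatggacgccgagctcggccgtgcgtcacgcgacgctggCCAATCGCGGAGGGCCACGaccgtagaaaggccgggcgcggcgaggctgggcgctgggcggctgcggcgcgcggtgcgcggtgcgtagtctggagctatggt
Like the element above, it was chosen after the values were known.

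Detoxification genes formed a further group of higher members. NRF2, encoded by *NFE2L2* and held back by *KEAP1*, is the transcription factor that answers electrophiles and oxidants by raising glutathione synthesis, NADPH supply and reductases. Of 36 NRF2 targets and regulators tested, 18 were higher (50%), 4 lower and 14 did not pass, with a median of 0.77. *GPX2* was at 5.76, 5.52 and 6.00 in Holoclone and 0.31, 0.58 and 0.19 in Paraclone cells (5.40 ± 0.18 SE, adjusted p = 7.36e-12), a glutathione peroxidase of epithelia. The aldo-keto reductase *AKR1C1* was at 3.53, 3.95 and 4.96 in Holoclone and 1.04, 1.13 and 1.28 in Paraclone cells (3.00 ± 0.27 SE, adjusted p = 5.88e-07). Its relative *AKR1C2* was at 3.77, 4.45 and 6.16 in Holoclone and 0.83, 1.39 and 1.55 in Paraclone cells (3.54 ± 0.46 SE, adjusted p = 2.58e-05). Holoclone replicate 3 was the highest for both, and since the AKR1C genes are near-identical copies, the split of reads between them is uncertain. The quinone reductase *NQO1* (1.51 ± 0.28 SE, adjusted p = 0.000675), the cystine importer *SLC7A11* (2.18 ± 0.39 SE, adjusted p = 0.000458) and the rate-limiting enzyme of glutathione synthesis *GCLC* (1.19 ± 0.21 SE, adjusted p = 0.00037) were higher as well, with no overlap of libraries. *NFE2L2* RNA was higher by 0.98 ± 0.27 SE, adjusted p = 0.011, and *KEAP1* did not pass (0.17 ± 0.14 SE, adjusted p = 0.381).

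Part of the list went the other way. The haem oxygenase *HMOX1* (−1.63 ± 0.31 SE, adjusted p = 0.000682), the ferritin heavy chain *FTH1* (−1.52 ± 0.29 SE, adjusted p = 0.000821), the efflux pump *ABCC3* (−1.74 ± 0.29 SE, adjusted p = 0.000246) and *TRIM16* (−0.77) were lower in Holoclone cells. *HMOX1* breaks down haem, and *FTH1* stores iron. The thioredoxin pair *TXN* (0.094) and *TXNRD1* (0.29) and the pentose phosphate enzymes *PGD* (0.18) and *TKT* (0.23) did not pass. In a fit of the 6 libraries alone, 12 members were higher and 4 lower. A core of the antioxidant response element, TGACNNNGC on either strand, stood in 11 of 33 promoter windows (33.3%, from 26 of 36 members) and in 2469 of all 17047 (14.5%). Of the 10 members with a match, 5 were higher and 0 lower. The windows of the pair with the largest change are shown, with the match in capitals.
GPX2, chr14:64942696-64942995, minus strand: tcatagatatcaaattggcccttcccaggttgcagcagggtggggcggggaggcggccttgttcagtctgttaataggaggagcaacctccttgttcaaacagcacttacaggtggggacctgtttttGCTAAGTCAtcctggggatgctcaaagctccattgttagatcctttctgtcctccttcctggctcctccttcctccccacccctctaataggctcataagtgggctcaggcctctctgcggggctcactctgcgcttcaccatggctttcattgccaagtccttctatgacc
PIR, chrX:15493284-15493583, minus strand: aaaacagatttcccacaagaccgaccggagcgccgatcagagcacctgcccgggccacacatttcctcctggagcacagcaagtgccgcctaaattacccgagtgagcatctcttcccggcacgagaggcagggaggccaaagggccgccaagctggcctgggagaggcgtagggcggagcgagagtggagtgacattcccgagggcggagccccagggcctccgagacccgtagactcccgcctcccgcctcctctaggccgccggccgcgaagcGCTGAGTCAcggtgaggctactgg
*PIR*, pirin, was higher by 1.48 ± 0.33 SE, adjusted p = 0.00237.

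Aldehyde dehydrogenases oxidise reactive aldehydes, and the activity of this family is often used to enrich CSC. Of 17 tested, 8 were higher (47.1%), 0 lower and 9 did not pass, with a median of 0.54. Beside *ALDH3A1*, the largest change, *ALDH2* was at 2.91, 3.49 and 3.74 in Holoclone and 1.45, 0.19 and 1.00 in Paraclone cells (2.50 ± 0.53 SE, adjusted p = 0.00157), and *ALDH7A1* (1.28) and *ALDH3A2* (1.19) were higher. The isoforms most often tied to that activity did not pass: *ALDH1A1* was under 1 log2(TPM + 1) in all 6 libraries and *ALDH1A3* was at 8.23 ± 0.31 in Holoclone and 8.05 ± 0.70 in Paraclone cells. With the replicate number as a block, or without Holoclone replicate 1, 5 of the family were called higher. Cytochromes P450, UDP-glucuronosyltransferases and glutathione transferases split, with 13 of 38 higher, 8 lower and a median of 0.030. *UGT1A6* was at 3.46, 2.95 and 3.18 in Holoclone and 0, 0.0060 and 0.029 in Paraclone cells (3.19 ± 0.12 SE, adjusted p = 3.45e-11), though its transcripts share exons with the other *UGT1A* genes. The aryl hydrocarbon receptor *AHR* (1.65 ± 0.21 SE, adjusted p = 1.68e-05) and its target *CYP1A1* (1.97 ± 0.16 SE, adjusted p = 1.52e-07) were both higher, *CYP4F11* (2.91) and *GSTP1* (1.23) too, and *CYP24A1*, which inactivates vitamin D, was lower (−3.75 ± 0.39 SE, adjusted p = 2.81e-06). The core of the AHR response element, GCGTG, was no more frequent in the list's promoter windows (37.8%) than in all windows (47.8%).

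**Figure D2:**
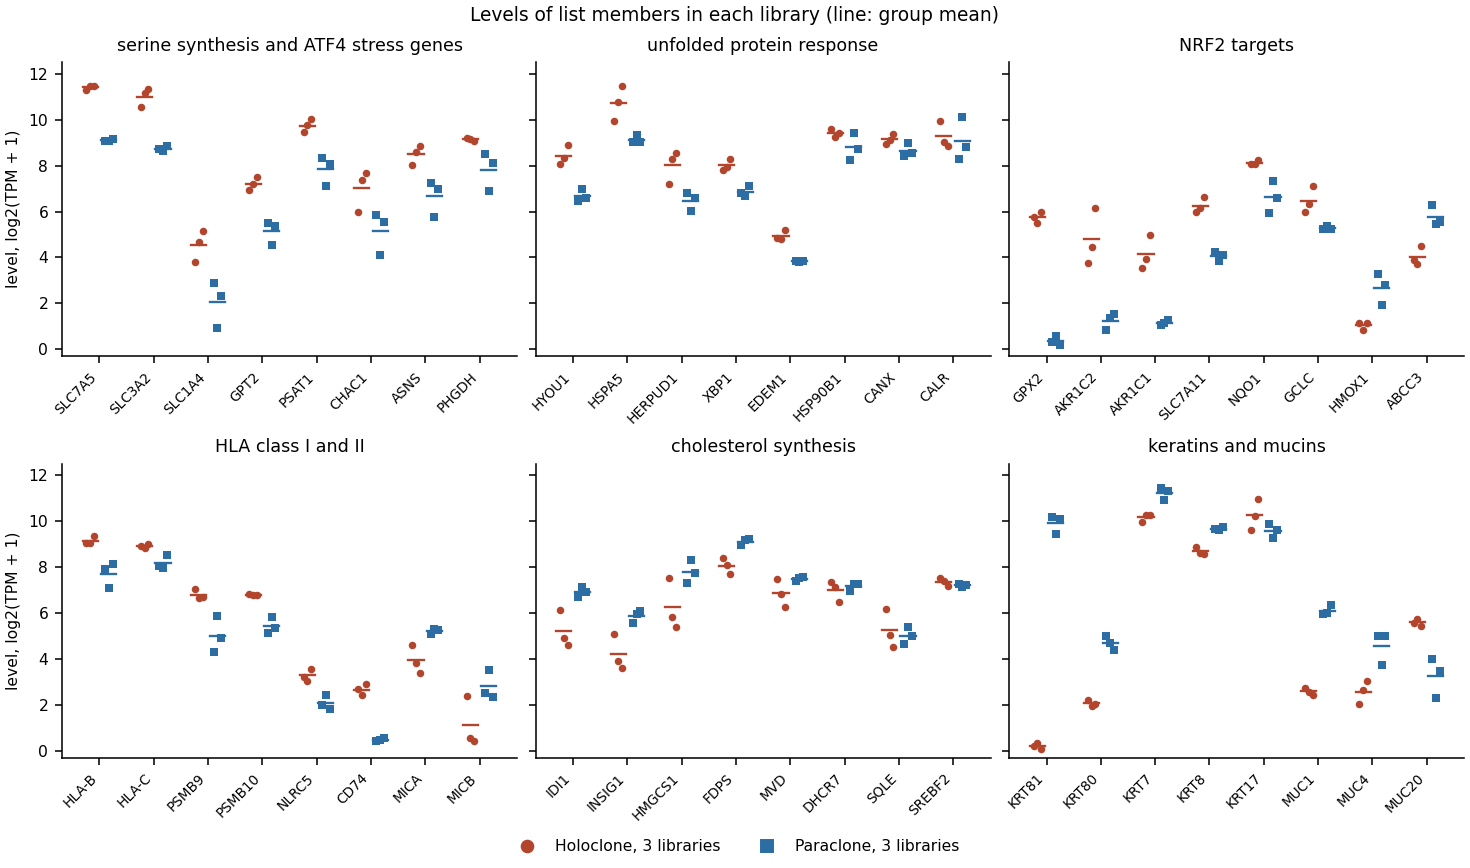
Levels in log2(TPM + 1) (y axis) of 8 members of each of 6 gene groups in every library, Holoclone as red circles and Paraclone as blue squares, 3 libraries each, with a line at the group mean. The amino acid, *GPX2*, *AKR1C1* and *HLA-B* values of Holoclone cells sit above those of Paraclone cells, the keratins other than *KRT17* and most mucins sit below, and cholesterol genes such as *SQLE* and *SREBF2* overlap.

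Antigen presentation genes were more often higher than lower in Holoclone cells. HLA class I molecules carry peptides to the cell surface for CD8+ T cells. The peptides are cut by the immunoproteasome, moved by the TAP transporter and trimmed by ERAP enzymes. Of 24 genes tested, 15 were higher (62.5%), 2 lower and 7 did not pass, with a median of 0.78. *HLA-B* was at 9.04, 9.05 and 9.33 in Holoclone and 7.90, 7.10 and 8.12 in Paraclone cells (1.43 ± 0.30 SE, adjusted p = 0.00142). *HLA-C* (0.72 ± 0.18 SE, adjusted p = 0.00525) was higher with no overlap of libraries, although reads of the HLA genes are hard to assign because of their similarity and allelic variation. The immunoproteasome subunits *PSMB8* (1.15), *PSMB9* (1.78 ± 0.30 SE, adjusted p = 0.000263) and *PSMB10* (1.36 ± 0.22 SE, adjusted p = 0.000156), the peptidases *ERAP1* (1.25) and *ERAP2* (1.06) and the class I transactivator *NLRC5* (1.19 ± 0.36 SE, adjusted p = 0.0159) were all higher. The light chain *B2M* was at 10.39 ± 0.11 in Holoclone and 10.23 ± 0.26 in Paraclone cells, and with *TAP1* (0.12), *TAP2* (0.61) and *TAPBP* (−0.070) did not pass. Ligands of the NKG2D receptor of natural killer cells divided: *ULBP1* (2.01), *ULBP3* (1.05) and *RAET1L* (1.14) were higher, and *MICA* (−1.29 ± 0.24 SE, adjusted p = 0.000644) and *MICB* (−1.68 ± 0.42 SE, adjusted p = 0.00551) lower. Without Holoclone replicate 1, 11 of the 24 were higher and 2 lower, and with the replicate block 12 and 2.

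Of 8 HLA class II genes tested, 4 were higher and 0 lower, with a median of 0.42. The invariant chain *CD74* was at 2.67, 2.41 and 2.90 in Holoclone and 0.41, 0.46 and 0.54 in Paraclone cells (2.19 ± 0.28 SE, adjusted p = 2.08e-05). *HLA-DRA* was at 1.36, 1.30 and 1.53 in Holoclone and 0.15, 0.19 and 0.44 in Paraclone cells (1.13 ± 0.25 SE, adjusted p = 0.00196). Both clones lay below the parental means, which were 4.10 and 2.50, and the class II transactivator *CIITA* did not pass (0.44 ± 0.22 SE, adjusted p = 0.137). The immune markers *CD68* and *CD14*, by contrast, had a higher summed level in Paraclone cells, and the part of other cells in these values was not tested.

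Most interferon-stimulated genes did not pass the test. They answer type I and II interferon through STAT and IRF factors. Of 61 tested, 7 were higher (11.5%), 11 lower (18%) and 43 did not pass, with a median of −0.085. *IFI27* was at 5.39, 7.20 and 8.99 in Holoclone and 10.11, 10.50 and 10.85 in Paraclone cells (−3.29 ± 0.61 SE, adjusted p = 0.000614). *IFI6* was at 5.58, 6.84 and 8.51 in Holoclone and 9.15, 9.78 and 10.44 in Paraclone cells (−2.81 ± 0.55 SE, adjusted p = 0.000845). In both genes the Holoclone libraries spread over more than 2 units. *IFITM2* (−2.14 ± 0.31 SE, adjusted p = 5.87e-05) was lower as well, whereas *TRIM22* (2.86 ± 0.58 SE, adjusted p = 0.00116), *IRF1* (1.31 ± 0.19 SE, adjusted p = 7.51e-05) and *LAMP3* (2.49 ± 0.82 SE, adjusted p = 0.0257) were higher. *ISG15* was at 8.94, 9.91 and 10.93 in Holoclone and 8.19, 11.002 and 9.65 in Paraclone cells, with overlapping ranges. The list's level overlapped between the clones, with deviations of −0.48, −0.17 and 0.61 in Holoclone and −0.44, 0.66 and 0.051 in Paraclone libraries. The direction of the list turned with the libraries: without Paraclone replicate 2 there were 13 higher and 8 lower (median 0.15), without Holoclone replicate 1 there were 7 and 7 (0.19), and without both 17 and 6 (0.54).

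The core of the interferon-stimulated response element, GAAANNGAA on either strand, stood in 40 of 62 promoter windows of the list (64.5%, from 47 of 61 members) against 1162 of all 17047 windows (6.82%), and its matches overlapped each other in 37 windows. Of the 34 members with a match, 3 were higher and 7 lower. The windows of both members that fell most are shown, since they carry the element and were lower in the clone whose HLA genes were higher. For *IFI27* it is the first of its annotated windows with a match, and matches are in capitals.
IFI27, chr14:94110486-94110785, plus strand: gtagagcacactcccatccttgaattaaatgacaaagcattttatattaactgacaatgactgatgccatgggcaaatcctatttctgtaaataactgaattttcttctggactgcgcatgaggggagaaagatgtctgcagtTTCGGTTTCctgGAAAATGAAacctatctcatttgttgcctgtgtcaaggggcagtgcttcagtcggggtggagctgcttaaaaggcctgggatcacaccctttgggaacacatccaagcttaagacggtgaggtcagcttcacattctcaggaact
IFI6, chr1:27672143-27672442, minus strand: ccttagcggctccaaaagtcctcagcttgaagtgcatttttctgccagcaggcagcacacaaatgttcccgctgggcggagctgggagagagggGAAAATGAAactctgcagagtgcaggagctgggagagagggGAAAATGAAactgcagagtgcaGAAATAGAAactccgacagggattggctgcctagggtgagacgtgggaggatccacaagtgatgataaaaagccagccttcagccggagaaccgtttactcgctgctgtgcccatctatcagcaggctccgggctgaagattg

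Other immune signals were mixed. Of 14 chemokines and receptors tested, 2 were higher and 2 lower (median −0.13). The chemokine receptor *CXCR4*, with a larger change (−4.30), was counted with the stem cell markers and is not in these counts. *CCL20*, which draws CCR6+ lymphocytes, was lower (−1.75 ± 0.24 SE, adjusted p = 4.71e-05) and *CXCL2*, which draws neutrophils, higher (1.43 ± 0.50 SE, adjusted p = 0.0352). Interleukins, TNF family members and colony-stimulating factors leaned lower, with 8 of 50 higher, 14 lower and 28 not past the threshold (median −0.065). *IL6* was at 0.23, 0.27 and 0.23 in Holoclone and 2.65, 6.08 and 3.64 in Paraclone cells (−3.88 ± 0.56 SE, adjusted p = 6.6e-05), and Paraclone replicate 2 had the highest value. *CSF3*, the granulocyte factor, was at 1.77, 0.98 and 1.46 in Holoclone and 3.77, 4.03 and 3.99 in Paraclone cells (−2.52 ± 0.25 SE, adjusted p = 1.55e-06), and the costimulatory ligand *TNFSF9* was lower (−2.98 ± 0.31 SE, adjusted p = 2.65e-06) while its receptor *TNFRSF9* was higher (2.20 ± 0.46 SE, adjusted p = 0.00151). Among 22 NF-kappaB pathway genes 3 were higher and 4 lower (median −0.11), the lower ones led by *RELB* (−1.98 ± 0.36 SE, adjusted p = 0.000538) and *SOD2* (−1.37 ± 0.27 SE, adjusted p = 0.00103). Complement genes were more often lower than higher, with 8 of 21 lower, 3 higher and a median of −0.45: *C3*, the central component, was at 7.16, 6.21 and 6.42 in Holoclone and 8.89, 8.79 and 9.09 in Paraclone cells (−2.33 ± 0.23 SE, adjusted p = 1.21e-06), and the regulators *CFI* (−3.06), *CD55* (−0.81) and *CD59* (−1.19) and the activator *CFB* (−1.85) were lower. Checkpoint ligands and adenosine enzymes gave 3 of 22 higher and 4 lower (median 0.079). The adenosine enzyme *NT5E* is given with the YAP and TEAD targets, where it was lower. *CD274*, PD-L1, was at 1.30 ± 0.22 in Holoclone and 1.20 ± 0.38 in Paraclone cells and did not pass, and the ectonucleotidase *ENTPD3* was lower (−2.62 ± 0.33 SE, adjusted p = 1.74e-05).

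The calls on cell division genes depended on single libraries. Mitotic genes rise when more cells of a culture are dividing, and their RNA is a common measure of that share. Of 50 mitotic genes tested, 2 were higher and 0 lower, although the list's median was 0.80, the second highest of all 56 lists. The replicates were far apart, and the list's median deviation was 1.29, 0.098 and −0.20 in Holoclone and −1.46, 1.39 and −1.03 in Paraclone libraries. Paraclone replicate 2 lay above every other library, at a level near Holoclone replicate 1, while the other Paraclone libraries were the lowest. *MKI67*, the proliferation marker, was at 5.11, 3.63 and 3.62 in Holoclone and 1.78, 5.09 and 2.49 in Paraclone cells (1.00 ± 0.68 SE, adjusted p = 0.279) and *TOP2A* at 7.57, 6.22 and 5.91 in Holoclone and 4.51, 7.55 and 4.96 in Paraclone cells. Without Paraclone replicate 2, 40 of the 50 were called higher with a median of 1.64, without Holoclone replicate 1 there was 1 (0.36), and without both 24 (1.22).

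DNA replication genes followed the same libraries, with 7 of 50 higher, 0 lower and a median of 0.53, and 22 higher without Paraclone replicate 2, 3 without Holoclone replicate 1 and 14 without both. *MCM2*, of the replicative helicase, was at 7.79, 6.62 and 5.94 in Holoclone and 4.95, 6.83 and 5.09 in Paraclone cells, and *POLE3* was called higher (1.16 ± 0.24 SE, adjusted p = 0.00122). Of 24 D and E cyclins and CDK inhibitors, 6 were higher and 5 lower (median 0.15), and without both libraries the counts were also 6 and 5. *CCND2* led the higher members. *CCND1*, counted with the MAPK feedback genes and not here, was higher by 0.55 ± 0.18 SE, adjusted p = 0.023. *CCNE1* (−1.37 ± 0.37 SE, adjusted p = 0.00925) and the inhibitor *CDKN1C* (−2.04 ± 0.38 SE, adjusted p = 0.000661) were lower, while *CDKN1B* was higher (0.99 ± 0.16 SE, adjusted p = 0.000188). *CDKN1A*, another inhibitor of these kinases, was at 5.61, 6.28 and 6.73 in Holoclone and 7.61, 5.21 and 6.79 in Paraclone cells, lowest in Paraclone replicate 2. BCL2 family members and apoptosis inhibitors gave 8 of 32 in each direction (median −0.032), among them *CASP1* higher (1.75) and *CASP9* (−1.40), *BOK* (−1.37) and *BIRC3* (−0.97) lower. Cytosolic ribosomal proteins gave 12 of 80 higher and 8 lower (median −0.050), in a range from −1.06 to 0.65. Only *RPS21* was below −1, at 9.90, 10.03 and 10.13 in Holoclone and 11.07, 11.02 and 11.14 in Paraclone cells. The direction of the ribosomal list turned with scaling, with 5 higher and 13 lower by upper quartile and 4 and 15 by median-of-ratios scaling. Without Holoclone replicate 1 its median changed sign. Of its 12 higher members, 6 lie on chromosomes 11 or 16, and its median without those chromosomes was −0.092.

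**Figure D3:**
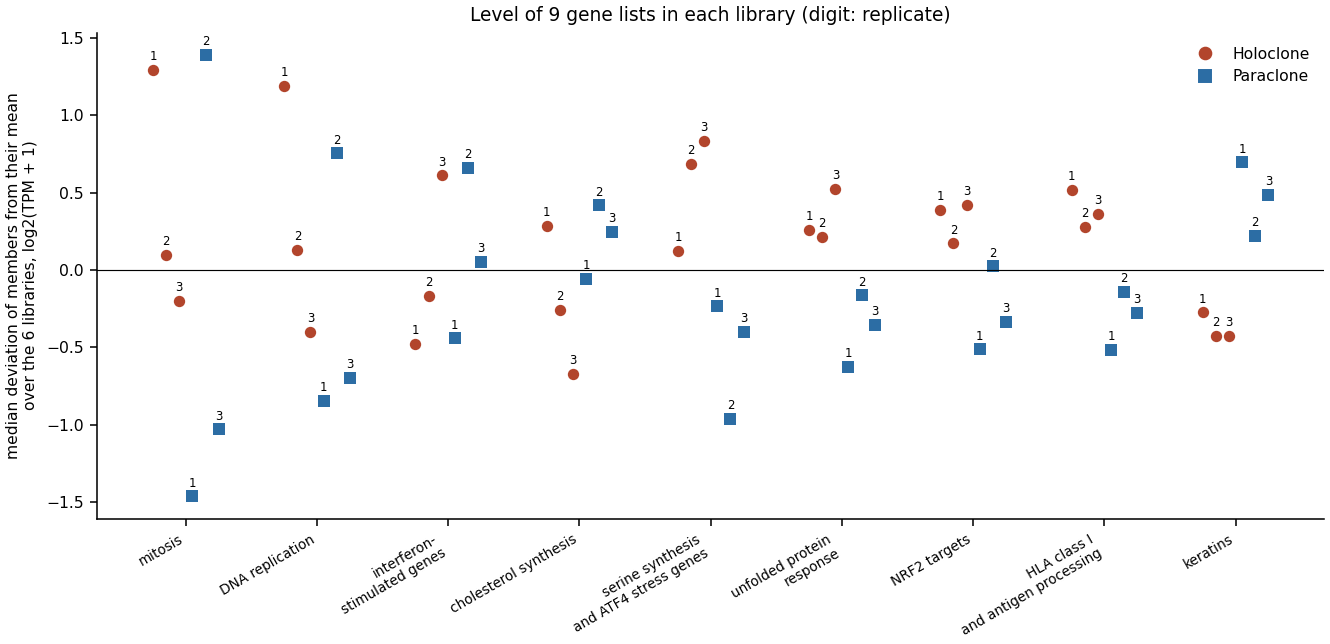
Median deviation of the members of 9 gene lists from their own means over the 6 libraries in log2(TPM + 1) (y axis), for each Holoclone (red circle) and Paraclone library (blue square), with the replicate number above each point. For mitosis, Holoclone replicate 1 at 1.29 and Paraclone replicate 2 at 1.39 lie together at the top, whereas the ATF4, unfolded protein response, NRF2, HLA class I and keratin lists separate all Holoclone from all Paraclone libraries.

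Lipid and energy metabolism differed in parts. The cholesterol pathway, driven by SREBP2 when sterols run low, had 9 of 26 genes lower in Holoclone cells (34.6%), 0 higher and a median of −0.37. *IDI1*, isopentenyl diphosphate isomerase, was at 6.14, 4.91 and 4.62 in Holoclone and 6.70, 7.12 and 6.90 in Paraclone cells (−1.68 ± 0.31 SE, adjusted p = 0.00063), and *INSIG1*, the sterol sensor's partner, at 5.08, 3.90 and 3.62 in Holoclone and 5.55, 5.96 and 6.10 in Paraclone cells (−1.67 ± 0.39 SE, adjusted p = 0.00352). *HMGCS1* (−1.56 ± 0.43 SE, adjusted p = 0.0103) and *FDPS* (−1.04 ± 0.24 SE, adjusted p = 0.00311) were lower too. Holoclone replicate 1 was the highest Holoclone library for these genes. Over the whole list it lay inside the Paraclone range, with median deviations of 0.29, −0.26 and −0.67 in Holoclone and −0.059, 0.42 and 0.25 in Paraclone libraries. *SQLE*, squalene epoxidase (0.23 ± 0.32 SE, adjusted p = 0.635), and *SREBF2*, which encodes SREBP2 itself (0.16), did not pass. Without Holoclone replicate 1, 12 of 26 were lower with a median of −0.62, and in the fit of the 6 libraries alone 5. The letters TCACNCCAC of the sterol element stood in 1 of 24 promoter windows (4.17%, that of *SREBF2*) against 1.04% of all windows.

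Fatty acid and lipid genes gave 8 of 38 higher and 11 lower (median −0.12). Of the 8 higher members, 4 lie on chromosomes 11 or 16, and the median without those chromosomes was −0.29. The acetyl-CoA synthetases diverged, with the mitochondrial *ACSS1* at 4.56, 4.21 and 3.76 in Holoclone and 0.30, 0.22 and 0.20 in Paraclone cells (3.94 ± 0.24 SE, adjusted p = 8.63e-09) and the cytosolic *ACSS2* at 5.55, 5.05 and 4.83 in Holoclone and 7.79, 6.94 and 7.81 in Paraclone cells (−2.37 ± 0.37 SE, adjusted p = 0.00012). The nuclear receptor *PPARG* was lower (−1.74 ± 0.18 SE, adjusted p = 1.92e-06) and *ACSL3* higher (1.03). Of 35 glycolysis and lactate genes, 6 were higher and 7 lower (median −0.066). Without Paraclone replicate 2 there were 7 and 8 (median 0.11), without Holoclone replicate 1 there were 5 and 11 (−0.24), and without both 6 and 9 (−0.085). The monocarboxylate carriers diverged as well: *SLC16A1* (MCT1) was higher (1.02 ± 0.16 SE, adjusted p = 0.000137) and *SLC16A3* (MCT4), the lactate exporter of glycolytic cells, lower (−1.62 ± 0.21 SE, adjusted p = 2.17e-05). *HK2* was higher (0.95) and the glucose carrier *SLC2A3* lower (−1.40). Hypoxia-inducible genes split into 6 higher and 10 lower of 29 (median −0.14). Carbonic anhydrase *CA9* was at 0.66, 0.72 and 0.73 in Holoclone and 2.96, 4.75 and 4.43 in Paraclone cells (−3.34 ± 0.32 SE, adjusted p = 1.04e-06) and *ANGPTL4* was lower (−2.42 ± 0.27 SE, adjusted p = 4.99e-06), but *ADM* (1.53 ± 0.26 SE, adjusted p = 0.00028) and *VEGFA* (1.44 ± 0.39 SE, adjusted p = 0.00965) were higher. Nuclear genes of oxidative phosphorylation gave 14 of 76 higher and 11 lower (median 0.014), none beyond 1 on the log2 scale. Without Paraclone replicate 2 there were 24 and 4, without Holoclone replicate 1 there were 10 and 21, and without both 19 and 18. With the other scalings, 12 were higher and 20 or 22 lower. Of the 14 higher members, 8 lie on chromosomes 11 or 16. Without those chromosomes the median was −0.042, with 9.23% of members higher and 16.9% lower.

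Epithelial differentiation products were more often lower than higher in Holoclone cells. Keratins are the intermediate filaments of epithelia, with pairs typical of simple epithelium (KRT8, KRT18), of stratified layers (KRT5, KRT14) and of hair. Of 19 tested, 10 were lower (52.6%), 1 higher and 8 did not pass, with a median of −0.91. Below *KRT81*, the largest change, *KRT80* was at 2.22, 1.96 and 2.02 in Holoclone and 5.01, 4.68 and 4.38 in Paraclone cells (−2.62 ± 0.26 SE, adjusted p = 1.6e-06). The simple epithelial keratins *KRT7* (−1.05 ± 0.23 SE, adjusted p = 0.00242), *KRT8* (−0.98 ± 0.26 SE, adjusted p = 0.00787) and *KRT18* (−0.89 ± 0.19 SE, adjusted p = 0.0018) were lower by about 1, and *KRT19* did not pass (0.37 ± 0.29 SE, adjusted p = 0.347). *KRT6A* (−1.10), *KRT6B* (−1.74) and *KRT14* (−1.45) were lower, *KRT10* higher (0.49), and *KRT17* missed the threshold (0.68 ± 0.26 SE, adjusted p = 0.0525). Keratin genes and their pseudogenes are similar, so single levels are uncertain.

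Mucins form the protective gel and the membrane coat of ductal cells. Of 11 tested, 7 were lower (63.6%), 2 higher and 2 did not pass, with a median of −0.92. *MUC1* was at 2.75, 2.56 and 2.44 in Holoclone and 5.97, 5.98 and 6.32 in Paraclone cells (−3.51 ± 0.18 SE, adjusted p = 1.15e-09), with all Paraclone libraries above all Holoclone libraries. *MUC13* (−2.53), *MUC4* (−1.99), *MUC16* (−1.64), *MUC5B* (−1.93), *MUC5AC* (−0.92) and *MUC6* (−0.92) were lower too, and *MUC20* (2.33 ± 0.34 SE, adjusted p = 7.36e-05) and *MUC3A* (1.84) higher. Other secreted and surface products of classical PDAC and gut epithelium gave 3 of 16 higher and 5 lower (median −0.036). *AGR2*, the disulfide isomerase that folds mucins, was at 8.09, 8.74 and 9.28 in Holoclone and 2.34, 3.56 and 4.07 in Paraclone cells (5.38 ± 0.45 SE, adjusted p = 2.69e-07), opposite to most mucins. *CEACAM6* (−2.73 ± 0.46 SE, adjusted p = 0.000283), *TFF1* (−1.74 ± 0.27 SE, adjusted p = 0.000115) and *CEACAM1* (−1.40) were lower.

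Squamous differentiation genes leaned lower, with 6 of 15 cornified envelope genes lower, 3 higher and a median of −0.66. The elastase inhibitor *PI3* was at 4.47, 3.79 and 3.57 in Holoclone and 8.88, 7.68 and 8.01 in Paraclone cells (−4.25 ± 0.25 SE, adjusted p = 4.28e-09), and the transglutaminases *TGM1* (−1.71) and *TGM2* (−2.40) were lower, whereas cystatin A (*CSTA*) was at 8.64, 8.58 and 8.89 in Holoclone and 6.36, 5.45 and 6.50 in Paraclone cells (2.60 ± 0.41 SE, adjusted p = 0.000149). Kallikrein peptidases, secreted serine proteases from a cluster on chromosome 19, went the other way, with 5 of 9 higher, 1 lower and a median of 0.66, but in the fit of the 6 libraries alone 1 was called. *KLK11* (0.97 ± 0.17 SE, adjusted p = 0.000468) and *KLK8* (0.66 ± 0.14 SE, adjusted p = 0.00221) were higher and *KLK10* lower (−0.66 ± 0.19 SE, adjusted p = 0.0134). S100 proteins and annexins, calcium-binding proteins of which many are raised in PDAC, were lower in 12 of 26 (46.2%) and higher in 3, with a median of −0.53. *S100A4* was at 3.31, 2.75 and 2.35 in Holoclone and 5.12, 5.53 and 5.31 in Paraclone cells (−2.52 ± 0.23 SE, adjusted p = 5.67e-07), *S100A9* had a log2 fold change of −2.01, and *S100A6*, *S100A10*, *S100A13*, *S100A14* and *S100A16* were lower with values between −1.42 and −0.94. The annexins *ANXA8L1* (2.14), *ANXA8* (1.09, a near-identical pair) and *ANXA6* (1.45) were the higher ones.

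Lineage transcription factors changed in both directions. Among 26 gut and pancreatic lineage factors, 8 were higher and 4 lower, with a median of 0. The forkhead factors of gut endoderm went opposite ways. *FOXA2* was at 5.25, 5.98 and 6.18 in Holoclone and 1.20, 0.84 and 1.10 in Paraclone cells (4.76 ± 0.20 SE, adjusted p = 1.74e-10). *FOXA1* was at 3.38, 2.44 and 2.13 in Holoclone and 4.94, 5.11 and 4.91 in Paraclone cells (−2.34 ± 0.24 SE, adjusted p = 1.8e-06). The epithelial ETS factor *EHF* was higher (1.53 ± 0.18 SE, adjusted p = 7.04e-06), and the ductal factor *SOX9* (−1.60 ± 0.30 SE, adjusted p = 0.000592) and the goblet cell factor *SPDEF* (−1.64 ± 0.35 SE, adjusted p = 0.00178) were lower. Of 23 squamous and ectodermal factors, 9 were higher (39.1%) and 6 lower (26.1%), with a median of 0.22. *SOX21* was at 6.57, 5.47 and 4.71 in Holoclone and 0.80, 1.56 and 1.22 in Paraclone cells (4.39 ± 0.39 SE, adjusted p = 5.37e-07). *TP63*, the master factor of basal squamous cells, was at 7.003, 7.28 and 7.19 in Holoclone and 3.52, 4.42 and 4.27 in Paraclone cells (3.09 ± 0.20 SE, adjusted p = 1.39e-08). *SOX2* was higher too (4.35 ± 0.34 SE, adjusted p = 1.02e-07). The libraries of these genes did not overlap between the clones, which the naming rule required. *OVOL2* (−1.91 ± 0.16 SE, adjusted p = 3.01e-07) and *IRX3* (−1.26 ± 0.24 SE, adjusted p = 0.000797) were lower.

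The stem cell marker *SOX2*, higher in Holoclone cells as given above, was counted with the squamous and ectodermal factors and is not in the next counts. Of 21 other commonly used stem cell markers tested, 4 were higher, 8 lower (38.1%) and 9 did not pass, with a median of −0.012. *CD44* was at 7.40 ± 0.51 in Holoclone and 7.41 ± 0.13 in Paraclone cells, without a call, and *PROM1*, which encodes CD133, fell below the expression filter. *PROCR* (0.98 ± 0.22 SE, adjusted p = 0.00301), *ALCAM* (0.58 ± 0.13 SE, adjusted p = 0.00238) and *MYC* (0.52 ± 0.15 SE, adjusted p = 0.0122) were higher. Beside *CXCR4*, the sialomucin *PODXL* (−1.87 ± 0.35 SE, adjusted p = 0.0006), *KLF2* (−2.24 ± 0.17 SE, adjusted p = 9.69e-08) and *EPCAM* (−0.65 ± 0.15 SE, adjusted p = 0.00317) were lower. With either other scaling 3 were higher and 8 lower, and with a pseudocount of 0.1 there were 6 and 8.

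Cell contacts differed by type. Tight junction genes gave 8 of 27 higher and 4 lower (median 0.19), with *CLDN1* at 7.90, 8.10 and 8.08 in Holoclone and 6.37, 6.30 and 6.02 in Paraclone cells (1.80 ± 0.45 SE, adjusted p = 0.00576) and *TJP3* lower (−0.77). Desmosome and hemidesmosome genes gave 5 of 14 higher and 2 lower (median 0.087): the basal layer components *COL17A1* (1.89 ± 0.16 SE, adjusted p = 2.35e-07), *DST* (1.70) and *DSG3* (1.61) were higher, and *DSC2* (−1.37) and *DSP* (−0.76) lower. Cadherins and immunoglobulin adhesion molecules were more often higher (11 of 24, 45.8%) than lower (2), with a median of 0.34. *CADM1* was at 6.34, 6.24 and 5.90 in Holoclone and 0.75, 1.21 and 1.38 in Paraclone cells (5.05 ± 0.23 SE, adjusted p = 3.97e-10). *NECTIN1* was at 8.04, 7.95 and 8.13 in Holoclone and 5.69, 5.34 and 5.30 in Paraclone cells (2.60 ± 0.17 SE, adjusted p = 1.62e-08), and both lie on chromosome 11. Of its 11 higher members, 7 lie on chromosomes 11 or 16, and its median without those chromosomes was 0.025. *CNTN1* was higher (1.63) and *L1CAM* lower (−3.88 ± 0.26 SE, adjusted p = 2.3e-08). Of 11 clustered protocadherins tested by limma-trend, 0 were called, with values from −0.53 to 0.45. Of these, 2 had an unadjusted p under 0.05.

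Genes of adhesion to the matrix were more often lower than higher. Integrins bind laminins, collagens and fibronectin, and the laminins are the ligands that epithelia lay down beneath themselves. Of 31 genes tested, 12 were lower (38.7%), 2 higher and 17 did not pass, with a median of −0.35. The beta chain *ITGB7*, best known from lymphocytes, was at 1.14, 1.16 and 0.92 in Holoclone and 4.44, 2.67 and 3.96 in Paraclone cells (−2.62 ± 0.31 SE, adjusted p = 9.6e-06). The leukocyte chain *ITGB2* was lower too (−2.32 ± 0.33 SE, adjusted p = 5.81e-05). The TGF-beta activating chains *ITGB6* (−1.81 ± 0.25 SE, adjusted p = 3.84e-05) and *ITGB8* (−1.84) and the fibronectin receptor chains *ITGA5* (−1.59) and *ITGB1* (−0.55) were lower. Of the chains of the main epidermal laminin, *LAMA3* was lower (−2.13 ± 0.27 SE, adjusted p = 1.77e-05), while *LAMB3* had −0.74 without a call. *ITGA6*, the laminin receptor chain of hemidesmosomes, was at 7.85, 7.34 and 7.29 in Holoclone and 6.83, 6.50 and 6.63 in Paraclone cells (0.84 ± 0.14 SE, adjusted p = 0.000261), and *LAMA1* was higher as well (2.80).

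Matrix genes themselves moved both ways. Of 27 collagens 5 were higher and 9 lower (median 0.048). Basement membrane chains went both ways, with *COL4A5* (1.04 ± 0.12 SE, adjusted p = 9.64e-06) and *COL4A6* (2.85 ± 0.23 SE, adjusted p = 1.89e-07) higher and *COL4A1* (−1.67 ± 0.20 SE, adjusted p = 8.3e-06) lower. Matrix proteases and inhibitors gave 15 of 45 higher and 14 lower (median 0.20), so that 64.4% of this list was called against 35.7% of all genes. The tissue inhibitors went opposite ways, since *TIMP3* was close to 0 in Paraclone cells and *TIMP1* was at 6.74, 6.89 and 6.94 in Holoclone and 9.98, 8.53 and 9.86 in Paraclone cells (−2.60 ± 0.27 SE, adjusted p = 2.08e-06). *TMPRSS4* (4.06 ± 0.42 SE, adjusted p = 2.46e-06) and *ADAMTS1* (3.49 ± 0.20 SE, adjusted p = 4.89e-09) were higher, and *ADAM19* (−4.20 ± 0.31 SE, adjusted p = 6.08e-08) and cathepsin B, *CTSB* (−2.04 ± 0.26 SE, adjusted p = 2.08e-05), lower. Matricellular and matrix-assembly proteins gave 10 of 39 higher and 9 lower (median 0.022), with *FBLN1* at 5.79, 5.27 and 4.72 in Holoclone and 1.64, 1.80 and 1.62 in Paraclone cells (3.57 ± 0.26 SE, adjusted p = 4.47e-08), *EFEMP1* (2.28) and *FBN2* (2.22) higher and *CCN5* (−3.50) and the lysyl oxidase *LOXL4* (−3.37 ± 0.20 SE, adjusted p = 5.52e-09) lower.

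Most signalling pathways had members called in both directions. TGF-beta family signals act through SMAD proteins and drive growth arrest or EMT in epithelial cells. Of 41 TGF-beta, BMP and activin genes, 10 were higher and 14 lower (34.1%), with a median of −0.19. Among ligands, *GDF15*, also a stress-response gene, was at 8.04, 9.57 and 10.03 in Holoclone and 5.26, 3.01 and 5.55 in Paraclone cells (4.61 ± 0.66 SE, adjusted p = 6.2e-05), and *TGFB1* was higher (0.55 ± 0.17 SE, adjusted p = 0.018). *BMP6* was lower (−2.31 ± 0.65 SE, adjusted p = 0.0112), but at 1.67, 1.67 and 1.69 in Holoclone and 5.71, 1.69 and 4.56 in Paraclone cells, so that Paraclone replicate 2 lay with the Holoclone libraries. Extracellular antagonists went both ways, with follistatin *FST* (2.33 ± 0.35 SE, adjusted p = 8.79e-05) and *FSTL1* (2.49 ± 0.25 SE, adjusted p = 1.57e-06) higher and *FSTL3* at 4.16, 3.71 and 3.72 in Holoclone and 7.57, 6.58 and 7.22 in Paraclone cells (−3.26 ± 0.21 SE, adjusted p = 1.08e-08). The feedback target *PMEPA1* was at 0.79, 1.58 and 1.54 in Holoclone and 6.43, 5.69 and 6.04 in Paraclone cells (−4.75 ± 0.21 SE, adjusted p = 2.48e-10).

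WNT genes gave 8 of 42 higher and 10 lower (median 0.041). *NKD2*, a pathway inhibitor, was at 5.57, 5.10 and 4.92 in Holoclone and 1.55, 1.17 and 1.56 in Paraclone cells (3.77 ± 0.24 SE, adjusted p = 1.04e-08), the receptors *FZD6* (1.82) and *LRP5* (0.78) were higher, and the ligands *WNT9A* (−2.77 ± 0.36 SE, adjusted p = 2.5e-05) and *WNT7A* (−1.47 ± 0.36 SE, adjusted p = 0.00489) and the secreted inhibitor *DKK1* (−1.84 ± 0.51 SE, adjusted p = 0.0101) lower. Notch genes leaned higher, with 10 of 29 higher (34.5%), 2 lower and a median of 0.30. The ligand *JAG1* was at 6.20, 7.32 and 7.45 in Holoclone and 5.41, 4.85 and 4.99 in Paraclone cells (1.90 ± 0.27 SE, adjusted p = 5.02e-05), and the ligands *DLL1* (1.73), *JAG2* (0.83) and the non-canonical *DLK2* (2.49 ± 0.17 SE, adjusted p = 2.39e-08) were higher. Of the receptors *NOTCH1* was higher (0.96) and *NOTCH3* lower (−1.42 ± 0.31 SE, adjusted p = 0.00189). Targets divided, with *HEY1* (1.76) and *HES7* (1.80) higher, *HES2* lower (−1.20) and *HES1* without a call (0.38 ± 0.49 SE, adjusted p = 0.601). YAP and TEAD targets gave 7 of 32 higher and 9 lower (median −0.039). *CCN2* was at 7.56, 6.68 and 6.00 in Holoclone and 3.28, 4.52 and 3.80 in Paraclone cells (2.88 ± 0.54 SE, adjusted p = 0.000639), and *NT5E* (−2.22 ± 0.18 SE, adjusted p = 1.48e-07) and *AXL* (−1.40 ± 0.22 SE, adjusted p = 0.000137) were lower.

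Among 16 ERBB receptors and ligands, 3 were higher and 5 lower (median −0.016): *NRG1*, the ligand of ERBB3 and ERBB4, was at 5.24, 5.69 and 5.44 in Holoclone and 1.58, 2.02 and 1.14 in Paraclone cells (3.88 ± 0.30 SE, adjusted p = 1.19e-07), whereas *EPGN* (−4.02 ± 0.27 SE, adjusted p = 2.35e-08), *EREG* (−0.96 ± 0.29 SE, adjusted p = 0.0182) and the receptor *ERBB3* (−1.35 ± 0.24 SE, adjusted p = 0.000468) were lower. MAPK feedback genes gave 9 of 36 higher and 3 lower (median 0.30, and 6 and 5 without Holoclone replicate 1 and Paraclone replicate 2), with *EGR2* (2.88 ± 0.46 SE, adjusted p = 0.000154) and *SPRY1* (1.48) higher and *SPRY2* (−0.98) and *EPHA2* (−0.96) lower. In the FGF, IGF and insulin axis 12 of 31 were higher and 10 lower (median 0.052). *H19*, the imprinted non-coding RNA next to *IGF2*, was counted here and had the highest change of the named genes. *H19* was at 11.27, 11.02 and 11.01 in Holoclone and 3.49, 4.60 and 3.82 in Paraclone cells (7.13 ± 0.25 SE, adjusted p = 1.6e-11). *FGFR3* was at 6.62, 5.51 and 4.90 in Holoclone and 2.42, 3.62 and 2.97 in Paraclone cells (2.67 ± 0.37 SE, adjusted p = 4.11e-05), and *STC1*, a secreted glycoprotein hormone, was at 6.998, 6.25 and 6.53 in Holoclone and 10.36, 8.85 and 9.94 in Paraclone cells (−3.12 ± 0.28 SE, adjusted p = 6e-07). Guidance molecules gave 18 of 53 higher and 12 lower (median 0.039). Among semaphorins, *SEMA4A* was at 4.29, 4.31 and 4.28 in Holoclone and 0.27, 0.90 and 0.65 in Paraclone cells (3.69 ± 0.15 SE, adjusted p = 8.83e-11). *SEMA7A* was at 1.18, 0.73 and 0.81 in Holoclone and 4.09, 3.59 and 3.63 in Paraclone cells (−2.86 ± 0.16 SE, adjusted p = 2.83e-09). *UNC5B*, a netrin receptor, was higher (2.58) and *PLXND1* lower (−1.80).

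Genes of drug handling were considered because gemcitabine is a main drug for PDAC and needs the carrier SLC29A1 (ENT1) to enter and deoxycytidine kinase to become active. Of 25 genes of uptake and nucleoside metabolism, 5 were higher and 4 lower (median 0.37, and 10 and 4 without Holoclone replicate 1 and Paraclone replicate 2). *SLC29A1* was at 6.20, 5.64 and 5.07 in Holoclone and 3.29, 5.12 and 3.23 in Paraclone cells (1.76 ± 0.40 SE, adjusted p = 0.00267), where Paraclone replicate 2 overlapped the Holoclone range. *CDA*, the deaminase that inactivates the drug, was at 4.81, 4.10 and 3.56 in Holoclone and 7.12, 6.92 and 6.96 in Paraclone cells (−2.84 ± 0.25 SE, adjusted p = 4.47e-07), with no overlap. *DCK* (0.076 ± 0.31 SE, adjusted p = 0.89) and *RRM1* (1.00 ± 0.51 SE, adjusted p = 0.146) did not pass, and *RRM2B* was higher (1.25 ± 0.15 SE, adjusted p = 9.93e-06). ABC transporters gave 4 of 20 in each direction (median −0.22, with 7 lower without Holoclone replicate 1, at −0.44, and 7 lower without both that library and Paraclone replicate 2, at −0.27), with *ABCA12*, a lipid transporter of keratinocytes, at 3.08, 3.65 and 4.05 in Holoclone and 0.37, 0.97 and 0.65 in Paraclone cells (2.93 ± 0.20 SE, adjusted p = 3.01e-08) and the multidrug pump *ABCC1* higher (0.72 ± 0.10 SE, adjusted p = 4.37e-05), while *ABCG2* did not pass (−0.43 ± 0.33 SE, adjusted p = 0.33). *ABCC2*, *ABCC3* and *ABCB6* were counted with the NRF2 targets and not with the ABC transporters. Of these, *ABCC3* was lower (−1.74) and *ABCB6* higher (0.745). Metallothioneins and zinc transporters gave 2 of 11 higher and 1 lower with a median of 0. The zinc exporter *SLC30A1* was lower (−1.53 ± 0.16 SE, adjusted p = 2.55e-06).

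Genes under epigenetic or germline control differed singly. Of 24 imprinted genes tested 7 were higher and 3 lower (median 0.12). *H19*, also imprinted and with a larger change (7.13), was counted with the FGF, IGF and insulin axis and is not in these counts. The highest of this list was the paternally expressed *PEG10*, which was at 6.45, 6.13 and 6.10 in Holoclone and 2.73, 4.56 and 2.41 in Paraclone cells (2.99 ± 0.47 SE, adjusted p = 0.000152). Its neighbour *SGCE* on chromosome 7 was higher as well (2.23 ± 0.24 SE, adjusted p = 4.35e-06), and *BLCAP* was higher (1.35 ± 0.10 SE, adjusted p = 1.09e-07). HOX genes gave 8 of 35 in each direction with a median of 0. *HOXB9* was the highest (2.02 ± 0.45 SE, adjusted p = 0.00258) and *HOXC13* the lowest (−1.59 ± 0.15 SE, adjusted p = 8.71e-07). Cancer-testis antigens gave 2 of 18 higher and 6 lower (median −0.063). Besides *RNF212*, *ACTL8* was at 3.49, 2.67 and 2.92 in Holoclone and 6.02, 7.42 and 6.42 in Paraclone cells (−3.59 ± 0.27 SE, adjusted p = 7.29e-08), while *MAGEA1* (0.79) and *MAGEA11* (0.85) were higher and *MAGEA9B* lower (−2.40), a family of similar genes on the X chromosome. DNA methylation and Polycomb enzymes gave 7 of 37 higher and 3 lower (median 0.11). *CBX6*, a Polycomb chromodomain protein, was at 5.93, 5.65 and 5.71 in Holoclone and 2.30, 2.62 and 2.17 in Paraclone cells (3.40 ± 0.15 SE, adjusted p = 2.61e-10), all Holoclone libraries above all Paraclone libraries by more than 3 units, and *KDM6A* was higher (0.60).

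**Figure D4:**
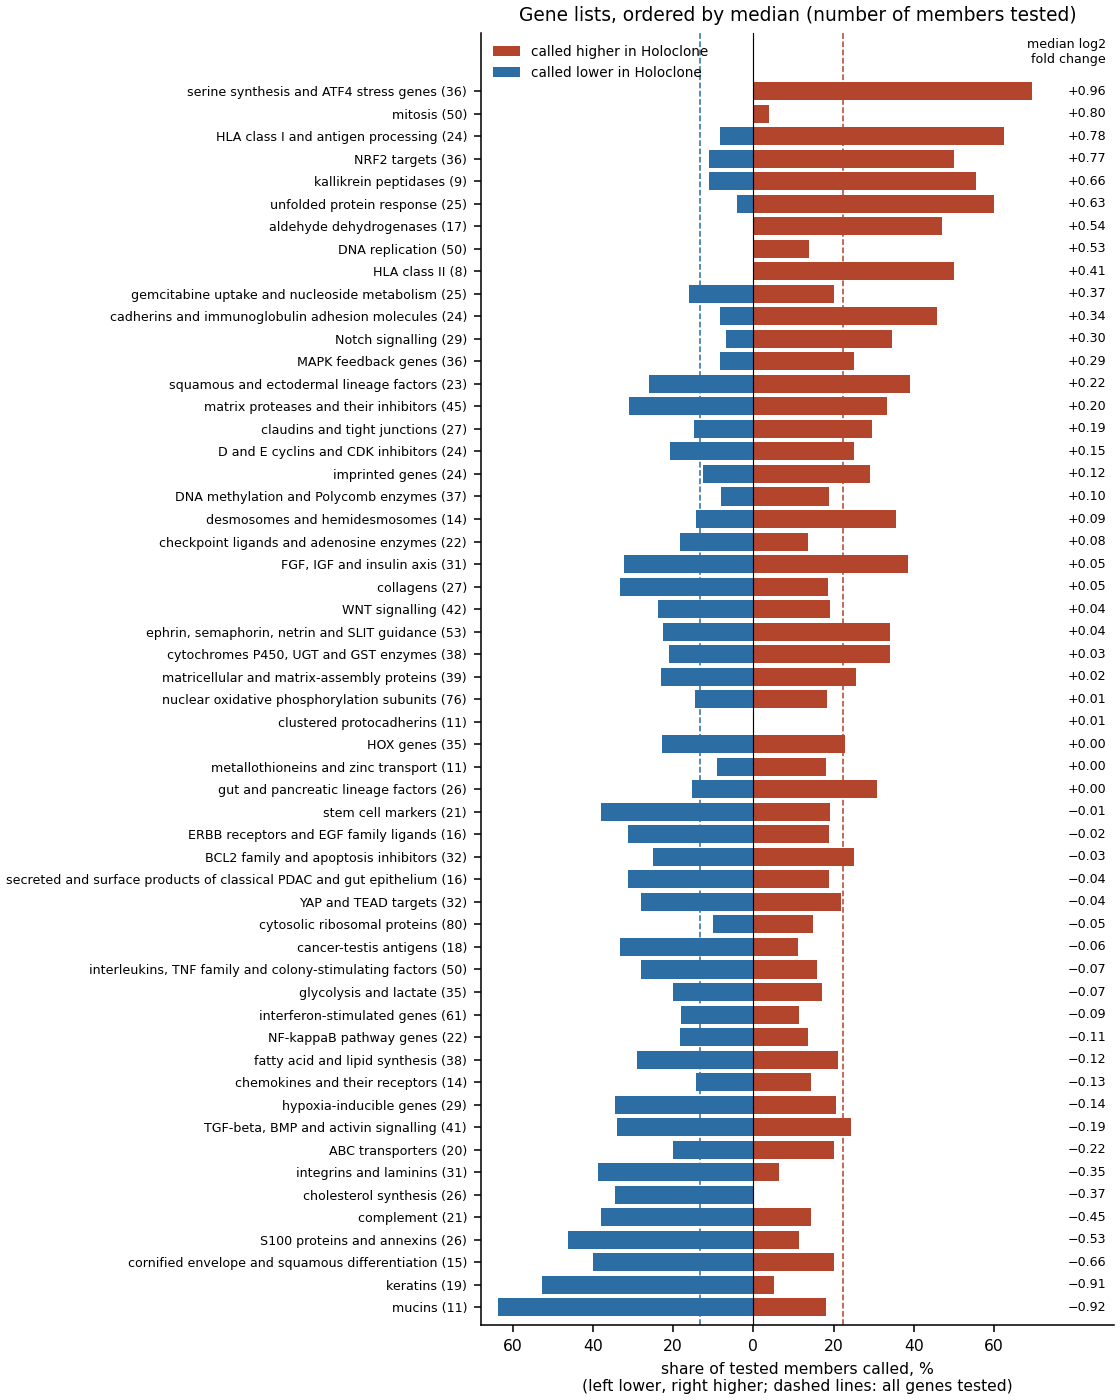
Share of tested members called lower (blue, to the left) and higher (red, to the right) in Holoclone cells, in percent (x axis), for 55 of the 56 gene lists, ordered by median log2 fold change, which is printed at the right, with the number of members tested in parentheses. Dashed lines mark the shares over all genes tested, 13.3% lower and 22.4% higher, and the ATF4 list with 69.4% higher stands at the top and mucins with 63.6% lower at the bottom.

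Position on the chromosomes went with the direction of change. Of the genes tested, 15839 had a single position on chromosomes 1 to 22 or X, and they were also taken in order in 319 windows of 50 neighbours. Chromosome 11 had a median of 0.42 over 895 genes, with 44.7% called higher and 6.26% lower, and chromosome 16 a median of 0.38 over 731 genes, with 41.6% and 6.84%. Next came chromosomes 22 (0.25), 9 (0.23) and 8 (0.21), and the lowest median was that of chromosome 17 (−0.002). Chromosomes 11 and 16 held 1626 of the 15839 genes and 704 of the 3569 that were called higher. On the other chromosomes the median was 0.0703, with 20.2% of genes higher and 14.1% lower.

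Many of the higher genes lay in long runs. On chromosome 11, 8 windows in a row from position 1309769 to 65383701 had medians above 0.3, with 210 of 400 genes higher and 14 lower, and 5 more windows in a row from 82899975 to the last at 134378341, with 115 of 245 higher and 16 lower. On chromosome 16, 8 windows from 30193875 to the end at 90222851 held 202 of 381 genes higher and 16 lower. Windows 4 to 6 of chromosome 16 were above 0.3 too, but its first 3 windows, from 14381 to 3717553, were below 0, at −0.082, −0.19 and −0.15. On chromosome 9 the ends differed: 7 windows between 70258978 and 133348131 had 164 of 350 genes higher and 24 lower (median 0.41), and 2 windows between 17579066 and 36487548 had 8 of 100 higher and 46 lower (−0.41). The first 2 windows of chromosome 5 (92168 to 38608354) had a median of 0.52, the first 4 of chromosome 22 a median of 0.50, and the first 2 of chromosome 10 (130088 to 26212532) one of −0.32. The first window of chromosome 6 (291630 to 10419659) was the lowest of all, at −0.43. On chromosome 8, 5 windows in a row from 40153482 to 123241377 had 123 of 250 genes higher and 13 lower (median 0.49), *RRM2B* among these genes. Of all windows, 45 had a median above 0.3 and 12 a median below −0.2. Copy number of the clones was not measured in these data, and its part in these runs was not tested.

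The following lists kept a median above that of all genes without chromosomes 11 and 16. The ATF4 list had a median of 0.90 elsewhere, with 65.6% of members higher, the unfolded protein response 0.59, NRF2 targets 0.57, HLA class I genes 0.73 and aldehyde dehydrogenases 0.54. *SLC3A2* and *AARS1* were among the 4 ATF4 list members on those chromosomes, all 4 of them higher. Only chromosomes 11 and 16 were left out, and the runs above 0.3 on chromosomes 5, 8, 9 and 22 stayed in. *HSPA5* on chromosome 9 and *XBP1* on chromosome 22 lie within such runs. The part of these other runs in the list medians was not tested.

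**Figure D5:**
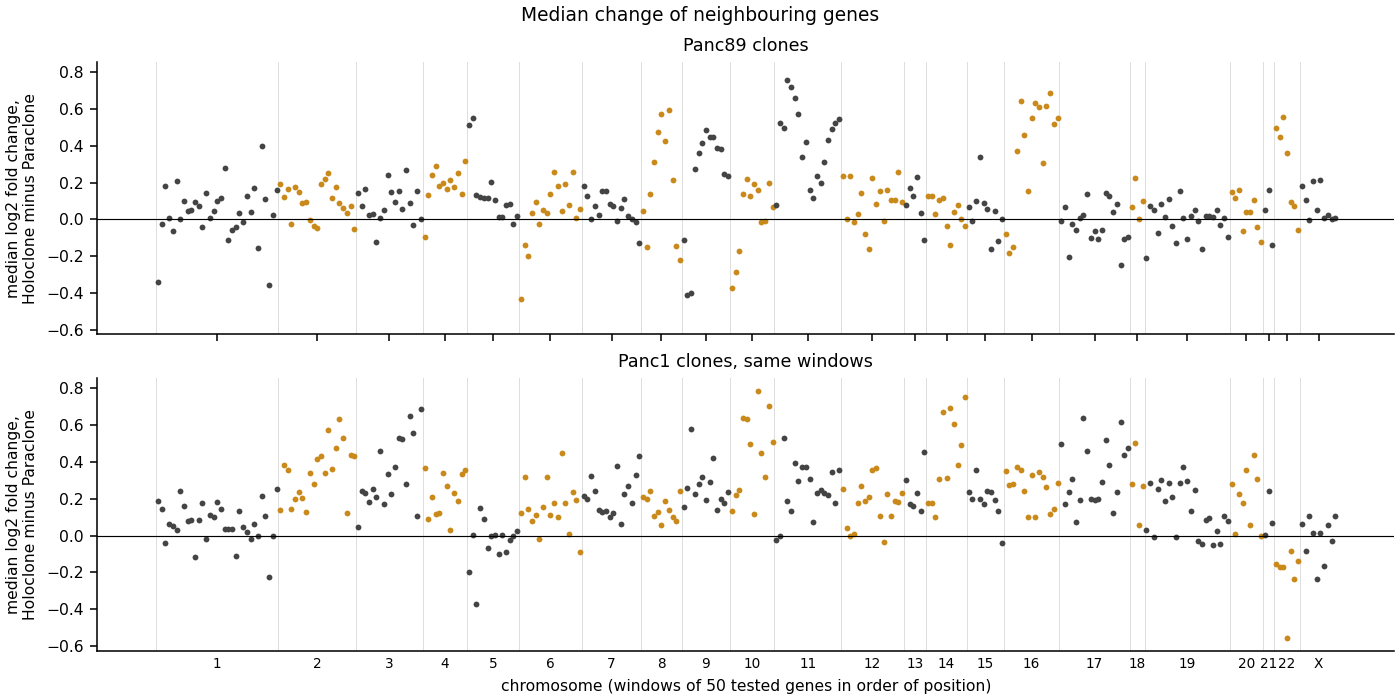
Median log2 fold change (Holoclone minus Paraclone, y axis) of windows of 50 neighbouring tested genes in order of position along chromosomes 1 to 22 and X (x axis, alternating colours), for the Panc89 clones above and for the Panc1 clones in the same windows below. In Panc89, runs of neighbouring windows on chromosomes 5, 8, 9, 11, 16 and 22 stand above 0.3 and runs on 9 and 10 below −0.2. Single windows of other chromosomes, among them 1 and 6, also lie beyond these limits. In Panc1 the chromosome medians run from −0.19 on chromosome 22 to 0.42 on chromosome 10.

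The same clone comparison in Panc1 shares no library with that in Panc89, and the difference of both changes was tested as an interaction in the same limma-trend fit. It passed for 5655 genes (35.1%). Of the windows of high median in Panc89, the 8 on chromosome 11 had a Panc1 median of 0.31 and the first 4 of chromosome 22 one of −0.21, beside a Panc1 median of 0.19 over all genes tested and of 0.3 or more on several other chromosomes (0.35 on chromosome 2 and 0.42 on chromosome 10). Of the lists, HLA class I genes differed most often, in 21 of 24 members. *HLA-B* changed by 1.43 in Panc89 and by −0.46 in Panc1 (difference 1.89, adjusted p = 0.00252), and *ERAP1* by 1.25 and −1.41 (difference 2.66, adjusted p = 5.66e-07). Integrins and laminins differed in 22 of 31 members and NRF2 targets in 23 of 36; *NQO1* changed by 1.51 and −0.96 (adjusted p = 0.000213). Few members differed in the cholesterol (1 of 26), mitosis (2 of 50) and DNA replication (1 of 50) lists, in which the spread between libraries was wide. In the ATF4 list 9 of 36 differed: *SLC7A5* changed by 2.32 and 0.78 (adjusted p = 0.000148), and *PHGDH* by 1.32 and 1.29 (adjusted p = 0.978). Some contact and matrix genes went opposite ways in the lines. The desmosomal *DSP* changed by −0.76 in Panc89 and 3.75 in Panc1 (adjusted p = 1.94e-10), *CADM1* by 5.05 and −3.21 (adjusted p = 1.58e-10), and *COL4A5* by 1.04 and −2.89 (adjusted p = 3.46e-10). Others were close in both lines. *ADAM19* changed by −4.20 and −3.89, *FOXA1* by −2.34 and −2.09 and *S100A4* by −2.52 and −2.97, with interaction estimates of −0.32 ± 0.44, −0.25 ± 0.33 and 0.45 ± 0.32 (SE), none past the threshold.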

How the data were processed

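RNA of 3 passages of each clone and of each parental line was sequenced, and the authors quantified transcripts with kallisto 0.46.1 against Ensembl transcripts of GRCh38, summed them to genes with tximport and deposited log2(TPM + 1) values, with scaled TPM and no read counts. The deposited table held 40266 gene symbols, and a gene was tested at 1 TPM or more in at least 3 of the 18 libraries (16093 genes). The deposited log2 values were fitted with limma 3.58.1 in R 4.3.3 (limma-trend, 6 group means over 18 libraries, which share 1 estimate of the spread), with Benjamini-Hochberg adjustment over all tested genes and a threshold of 0.05. The authors' own tests were not used. Counts are not contained in TPM, so no count model was run. The Panc89 change minus the Panc1 change was tested as an interaction in the same fit. The fit was tested on simulated data before use.

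Genes were named by this rule: of all called genes that reached 10 TPM in 1 of the clones and whose libraries did not overlap, the 12 with the largest rise and the 12 with the largest fall, up to 3 members in each direction of each list under the same conditions, further list members with their values where the account needed them, and the cell type markers. XIST and Y-linked genes were left out, and some further genes and 1 list are not reported here. The members and the 56 gene lists were chosen with earlier results of these data known. Positions of genes come from GENCODE 44 (GRCh38) and promoter sequences from RefSeq (GRCh38.p14). The replicate numbers did not pair the clones, since deviations of same-numbered libraries had correlations of −0.32, −0.22 and 0.19. Among all pairs the highest correlation was 0.41, between Holoclone replicate 1 and Paraclone replicate 2. Alternatives were a pseudocount of 0.1, no filter, a filter at 5 TPM, upper quartile and median-of-ratios scaling, removal of mitochondrially encoded genes, a replicate block, a fit of the 6 clone libraries alone, robust variance, a stricter threshold and leaving out each library.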

Additional observations from a re-analysis of the deposited data

Results flagged for a closer look

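Of the 24 genes of largest change in Panc89, 23 changed differently between the clones of Panc1, by the interaction test of limma-trend. The values below are the Panc89 change minus the Panc1 change on the log2 scale. Among genes higher in Holoclone cells they were 7.807 for *H19*, 6.797 for *ALDH3A1*, 6.415 for *HCLS1*, 6.259 for *TIMP3*, 5.112 for *FEZ1*, 5.393 for *GPX2*, 4.917 for *AGR2*, 5.288 for *PDPN*, 5.247 for *LRRC38*, 4.604 for *NGFR* and 8.261 for *CADM1*. Among genes lower in Holoclone cells they were −8.731 for *KRT81*, −7.655 for *PSCA*, −5.966 for *RNF212*, −5.658 for *SERPINB3*, −6.044 for *APCDD1L-DT*, −3.854 for *NNMT*, −5.976 for *ALPP*, −5.110 for *MFAP5*, −5.030 for *SIRLNT*, −6.302 for *FAM20C*, −4.700 for *PMEPA1* and −4.662 for *GREP1*. *CADM1* changed in opposite directions, by 5.05 in Panc89 and −3.21 in Panc1. *IGFBP7* was the exception, with a difference of 0.23 and an adjusted p of 0.679. These genes were chosen for a large change in Panc89, so a difference from a line in which they did not change follows in part from that choice.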

How the results depend on the processing

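The number of genes called and its directions stayed within 1.5 times of 5746, 3606 and 2140 under other scalings, filters, pseudocount and robust variance. A fit of the 6 clone libraries alone called 3377 genes (2174 higher, 1203 lower), from fewer samples and with the spread of these clones only. Root mean square deviations from the group mean were 0.199 to 0.422 in these libraries and 0.182 to 0.323 in the others. The spread shared by all 18 libraries can therefore understate the error of this comparison. An added fold change over 1 left 2124 (1264 and 860), and an adjusted p under 0.01 left 1420 lower. The median of all genes was 0.0047 without a filter, 0.0128 with upper quartile and 0.0025 with median-of-ratios scaling. Leaving out 1 library gave 4549 to 6600 calls, 2794 to 4312 higher and 1610 to 2640 lower, medians of 0.0329 to 0.1327, and 4830 to 6072 genes that differed from Panc1. Leaving out Holoclone replicate 1 and Paraclone replicate 2 together, which was chosen after the data were seen, gave 6632 calls, 5224 of them shared. The replicate block gave 5211 calls (3247 higher, 1964 lower), and the numbers were not paired. Of 267 named genes in 4005 refits, 0 changed sign and 147 refits lost the call, for 57 genes, 52 of them in the fit of the 6 libraries alone. Of 840 list medians, 114 moved by more than the spread between replicates, and 8 of the 56 lists had a small positive median that turned negative with another scaling. Depth is unknown, so low levels carry a counting error that was not measured, and clones and phenotype cannot be told apart.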
